A study of Mus musculus with 2 samples.

Results

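Recurrent transcript models with new splice sites are models of annotated genes that use at least 1 splice site absent from the GENCODE M21 annotation and that were found in both libraries of mouse gastrocnemius RNA. They were chosen by their reads: rows of the new-site class in annotated genes were joined over the libraries by gene and complete chain of introns, and those with at least 2 reads in each library were kept. This gave 630 models in 453 genes, of 19569 new-site models of annotated genes in either library and 90115 joined models of annotated genes in all. The new-site models numbered 13786 in replicate 1 and 7694 in replicate 2. Because reads chose the models, their reads and shares are a description. At the limit of the rule, 1281 models were in both libraries with 1 read in the lower library and had a median share of gene reads of 2.64%, and the 240 models with exactly 2 reads in the lower library had 3.85%.

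The RNA came from the gastrocnemius, the large calf muscle, of male B6CASTF1/J mice, first-generation offspring of C57BL/6 and CAST mice, at 14 days of age. The samples formed 1 group of 2 libraries, numbered as replicates in the labels, with 2 µg of RNA in each, and no other condition was sequenced. The labels give the same donor identifier for both and speak of several males, and whether animals were pooled or separate is not stated. Each SD below therefore measures only the spread between these libraries. Each p-value sets the read counts of 1 library against those of the other and covers only the counting error of reads. Replicate 1 held 1141661 reads and replicate 2 held 642362, of which 1094607 and 626289 remained without ERCC spike-in RNAs. All 7 markers of skeletal muscle fibres had reads in each library, with summed levels of 186745 and 187974 CPM (reads scaled to the library total). The 4 fibroblast markers summed to 6908 and 2716 CPM. The markers of 8 other cell types summed to between 0.914 and 755 CPM, with the cardiac marker Nppa at 0 reads in both libraries. Whether other cell types took part in the values of the models was not tested.

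An intron begins at a donor site, usually with the letters GT, and ends at an acceptor site, usually with AG. Sites of the same kind can lie a few bases apart in tandem, and a choice between them adds or removes a few bases of exon. A change by a multiple of 3 bases within the coding part keeps the reading frame. Very short exons are common in genes of muscle and nerve, often in frame, and leave an aligner little sequence to place.

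The sequences at short exons are shown first because 9 of the 12 models with the highest shares, among those with at least 20 reads in each library, lie there. In Pdlim7, Mrpl33, Rps24 and Capn2 the new site lengthened an annotated exon, and the intron that begins or ends at it spanned a short annotated exon. Each pair gives the added bases in capitals and the spanned short exon in lower case, both 5′ to 3′ on the strand of the gene, from the GENCODE M21 transcripts on mm10. The added bases lie at chr13:55507625-55507649 (Pdlim7), chr5:31614023-31614030 (Mrpl33), chr14:24494070-24494087 (Rps24) and chr1:182484186-182484202 (Capn2). The spanned exons lie at chr13:55507864-55507880, chr5:31614603-31614621, chr14:24495430-24495449 and chr1:182482536-182482547. Pdlim7 and Capn2 are on the minus strand and Mrpl33 and Rps24 on the plus strand.
Pdlim7, 25 bases added before the next exon: GTTCTGAGCTCTGCCCTTCCCATAG
Pdlim7, spanned exon of 17 bases: gtgcagacctctgacaa
Mrpl33, 8 bases added after the exon: GTAAGTCG
Mrpl33, spanned exon of 19 bases: ttgccaagagcaagtcaaa
Rps24, 18 bases added after the exon: GTACTGCCATTGGGCACG
Rps24, spanned exon of 20 bases: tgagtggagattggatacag
Capn2, 17 bases added after the exon: GTACCGGCAGAGGATGG
Capn2, spanned exon of 12 bases: gttccagaggag

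The next sequences stand for small shifts at annotated exons. In the first 6, capitals mark the bases that the new site removes from the exon, and in the last 2, capitals mark the bases it adds. Removed bases end with AG at acceptors and begin with GT at the donors shown, the letters at the end or start of the new intron, and where bases are added the lower-case gt or ag beside the capitals is that of the new intron. The windows are chr2:164777304-164777333 (Tnnc2), chr1:172213362-172213391 (Casq1), chr4:140966495-140966524 (Sdhb), chr17:10216430-10216459 (Qk), chr7:46851029-46851058 (Ldha), chr9:54589891-54589920 (Idh3a), chr2:164777938-164777967 (Tnnc2, donor) and chr11:5079495-5079524 (Ewsr1). Sdhb, Ldha and Idh3a are on the plus strand and the others on the minus strand.
Tnnc2, acceptor, exon 2 bases shorter: AGtttctgaagatgatggagggcgttcagt
Casq1, acceptor, exon 3 bases shorter: GAGgatgacctggatggaatccacattgtc
Sdhb, acceptor, exon 6 bases shorter: TTTCAGgcctgtcgaggggcacagacagct
Qk, acceptor, exon 24 bases shorter: CAGCCCTTGCCTTTTCTCTTGCAGcaactg
Ldha, donor, exon 3 bases shorter: gggtcctgggagaacatggcgactccaGTG
Idh3a, donor, exon 24 bases shorter: aaacagGTGACAAGAGGTTTTGCTGGTGGT
Tnnc2, donor, exon 4 bases longer: tcatcgaggaggtggacgaggatgGTGAgt
Ewsr1, acceptor, exon 3 bases longer: agCAGcgctggagagcgaggtggcttcaat

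Atp2a1, the calcium pump of fast-fibre sarcoplasmic reticulum, held 89.8% of all reads on recurrent new-site models in replicate 1 (92538 of 103044) and 85.8% in replicate 2 (33883 of 39506). Its leading 22-exon model (chr7:126445858-126463108, minus strand) had 91434 and 33324 reads. That was 93.8% of the reads of complete models of the gene in replicate 1 and 93.9% in replicate 2, a mean of 93.8% ± 0.0495 (SD, n = 2). A complete model is here one listed as known, as a new combination of annotated sites or as having new sites, and every share below is of such reads in the gene. The exact Clopper-Pearson 95% intervals were 93.7% to 94.0% and 93.6% to 94.1%, and these intervals cover counting error only. The libraries overlapped within counting error.

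The new site of that Atp2a1 model was a donor at position 126462778 of chromosome 7, in the coding part of the gene. It lay 26 bases beyond the annotated donor, and the intron spanned the annotated 18-base exon at chr7:126462500-126462517, so that the model was 8 bases longer than with that exon. Over models of every class, the intron was in 98140 and 35546 reads, a direct junction from the annotated donor past the short exon in 44 and 12, and the short exon between its annotated sites in 0 and 1. The new intron thus held 99.96% of the reads of these 3 forms in each library. Whether reads that carried the short exon were placed on the added bases was not tested.

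Atp2a1 had 25 recurrent models, the most of any gene, and 22 of them had a new site at that short exon. The other 24 were rare, from 2 to 323 reads in replicate 1 and from 2 to 198 in replicate 2. Most joined the 26-base extension with a second small shift elsewhere in the gene. In model 2 that second site was an acceptor 5 bases inside the exon (323 and 198 reads, 0.331% and 0.558%), and in model 4 an acceptor 3 bases inside (125 and 46 reads, 0.128% and 0.130%). Models 5 and 7 had a donor 4 bases beyond the annotated one (73 and 30 reads, and 53 and 36). Model 3 used a donor 4 bases, and model 6 a donor 22 bases, beyond the same annotated donor as model 1, with 145 and 65 and with 68 and 24 reads. In all other genes together, recurrent new-site models took 10506 reads (0.960%) and 5623 reads (0.898%).

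Of the 12 models with the highest mean share among those with at least 20 reads in each library, 9 had a new site whose intron spanned an annotated exon of at most 30 bases. Mrpl33, a protein of the large mitochondrial ribosomal subunit, led with 189 and 237 reads, 95.0% and 97.9% of its gene. Its donor lay 8 bases beyond the annotated one and its intron spanned a 19-base exon. Capn2, the large subunit of a calcium-activated protease, had 96 and 30 reads, 97.0% and 93.8%, with a donor moved by 17 bases and a 12-base exon spanned. In both genes the new-site model held nearly all reads in each library.

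Pdlim7 and Pdlim5, adaptor proteins of the Z-disc with a PDZ domain and LIM domains, were both led by such a model. Pdlim7 model 1 had 469 and 293 reads (84.7% and 89.1%, mean 86.9% ± 3.11, SD, n = 2) and an acceptor 25 bases before the annotated one, with a 17-base exon spanned. Pdlim5 model 1 had 208 and 70 reads (91.2% and 81.4%) and a donor 28 bases beyond the annotated one. On the annotated path with the same outer sites, the Pdlim5 intron spanned exons of 17 and 15 bases, 32 in all. The libraries overlapped in their counting intervals for Pdlim5, 86.8% to 94.6% against 71.6% to 89.0%.

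Ampd1, the muscle AMP deaminase, had 172 and 70 reads on its model, 79.3% and 81.4%, with 6 bases gained and a 12-base exon spanned. Rps24, a protein of the small ribosomal subunit, had 90 and 60 reads, 83.3% and 85.7%, with 18 bases gained against a 20-base exon. Read from the annotated start, the Rps24 model gave the same 131 codons as the annotated transcript. The reading of Mrpl33 gave 42 codons against 65, that of Capn2 441 against 700 and that of Pdlim7 116 against 222. These codons come from the bases of annotated transcripts, not from the reads. Whether reads that carried the short exons were placed on the added bases was not tested, so the codons describe the models as listed.

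Col6a1, a collagen VI chain, had 104 and 32 reads, 89.7% and 86.5%, on a model with 2 such introns. At the first, 37 bases were gained at the acceptor with exons of 21 and 21 bases spanned, and at the second, 4 bases at the donor with a 9-base exon spanned. Of all reads of the gene, incomplete models included, the Col6a1 model held 50.5% and 58.2%, and the Rps24 model 58.8% and 46.5%. Suds3, a subunit of the Sin3 histone deacetylase complex, had 58 and 20 reads, 82.9% and 87.0%. It gained 4 bases at a donor and 16 at an acceptor around a spanned 20-base exon, a net change of 0. With so few reads its intervals were wide, 72.0% to 90.8% and 66.4% to 97.2%.

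The 3 leading models away from short exons were those of Vdac3, Phkb and Dctn2. Vdac3, a channel of the mitochondrial outer membrane, had 473 and 229 reads, 91.3% and 91.6%, on a model with a donor 1 base beyond the annotated one. The intron letters at that donor could not be read, so whether it begins with GT is not known here. Dctn2, a subunit of the dynactin complex, had 91 and 39 reads, 66.9% and 81.2% (the widest spread of the 12, SD 10.1), with a donor 10 bases beyond. Its reading frame met a stop after 38 codons, against 402 in the annotated transcript. Phkb is described with the new exons.

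**Figure D1:**
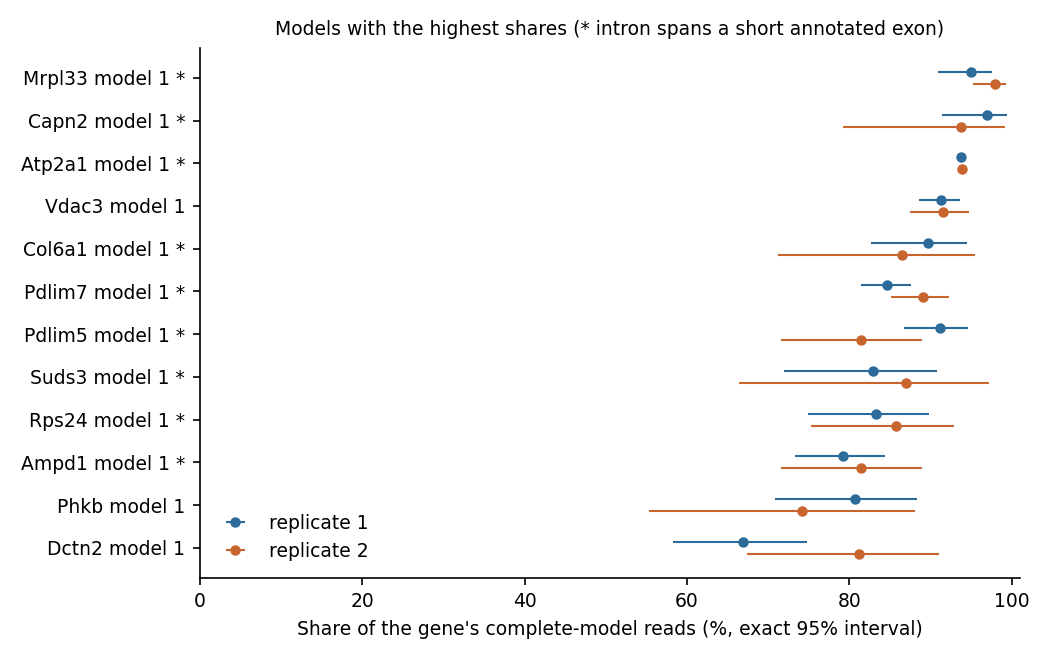
Share of the complete-model reads of the gene (horizontal axis, percent) for the 12 models with the highest mean share and at least 20 reads in each library, with points for replicate 1 and replicate 2 and bars for exact 95% intervals of counting error. The 9 models marked with a star have a new-site intron that spans an annotated exon of at most 30 bases, and the lowest point is Dctn2 in replicate 1 at 66.9%.

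In all, 80 of the 630 models, in 45 genes, had a new site at an exon of at most 30 bases: in 76 the intron spanned an annotated short exon and in 5 the new site bounded a short exon. They made up 12.7% of recurrent models, against 5.52% of the 17658 new-site models seen in 1 library only (975). Without Atp2a1 the shares were 9.59% (58 of 605) and 4.49%. The part at short exons was 31.6% among models with a mean share of at least 50% (24 of 76), 6.29% at shares of 10% to under 50% (11 of 175), 7.81% at 1% to under 10% (15 of 192) and 16% under 1% (30 of 187).

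For 48 introns in 36 genes, the annotation held a path between the same outer sites through short exons alone. There the bases gained could be set against the bases spanned. Introns with a new site over 100 bases from the nearest annotated one were left out, that of Tnnt3 model 1 (111 bases) among them. Where the annotation held several such paths, the one with fewest exons was used. The exon was longer at the new sites in 45 of the 48 introns and shorter in 3. The net change, bases gained minus short exon bases, was within 10 bases in 34, within 5 bases in 25 and 0 in 3, with a median size of 5. It was a multiple of 3 in 12 of the 48. Over the 41 introns with 1 new site and a longer exon, Pearson's r between bases gained and bases spanned was 0.748 and Spearman's rho 0.618, a description over introns of which several share a gene.

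In 27 of the 48 no read of either library held the short exon between the same annotated sites. In 26 the new-site intron had at least 90% of the reads of the 3 forms in each library. The 3 forms leave out other new introns at the same annotated sites, so several introns of 1 gene can each reach 90%. In Tnnt3 an intron with 154 and 129 reads and another with 85 and 82 both did. Col6a1, Pdlim5, Capn2, Capn1 (a second calcium-activated protease, 11 bases gained against 12) and Hacd1 (an enzyme of very long fatty acid synthesis, 27 against 19) had all reads of the 3 forms on the new intron. Among the other introns, some had most reads of the 3 forms on the new intron, Ampd1 and Rps24 among them, and others had most on annotated junctions. Myl1, the fast essential light chain, had 4851 and 2897 reads with its 28-base exon between 1 pair of outer sites, 0 and 1 that skipped it, and 16 and 7 on the new intron. Between a second pair of outer sites around the same exon, 248 and 218 reads held it, 8511 and 7023 skipped it directly, and 9 and 10 were on the new intron. Bsg, a membrane glycoprotein that escorts lactate transporters, had 871 and 419 reads with its 25-base exon and 52 and 21 on an intron with 28 bases gained. Trim63, a ubiquitin ligase of muscle atrophy, had 257 and 54 against 18 and 3. Capn1, Hacd1, Bsg, Trim63 and Myl1 were picked here after their values were seen.

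The added bases could be read in 9 of the 48 introns. Set base by base against the short exon from the shared side, Capn2 matched at 8 of 12 bases, Pdlim7 at 6 of 17, Rps24 at 6 of 18, Mrpl33 at 2 of 8 and Timm50, of the mitochondrial import machinery, at 7 of 22. Lmf1 matched at 3 of 4, Rwdd4a at 2 of 3, Myl1 at 3 of 13 and Pitpna at 0 of 4. Gaps were not allowed in this comparison, and the stretches differ in length in 7 of the 9.

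**Figure D2:**
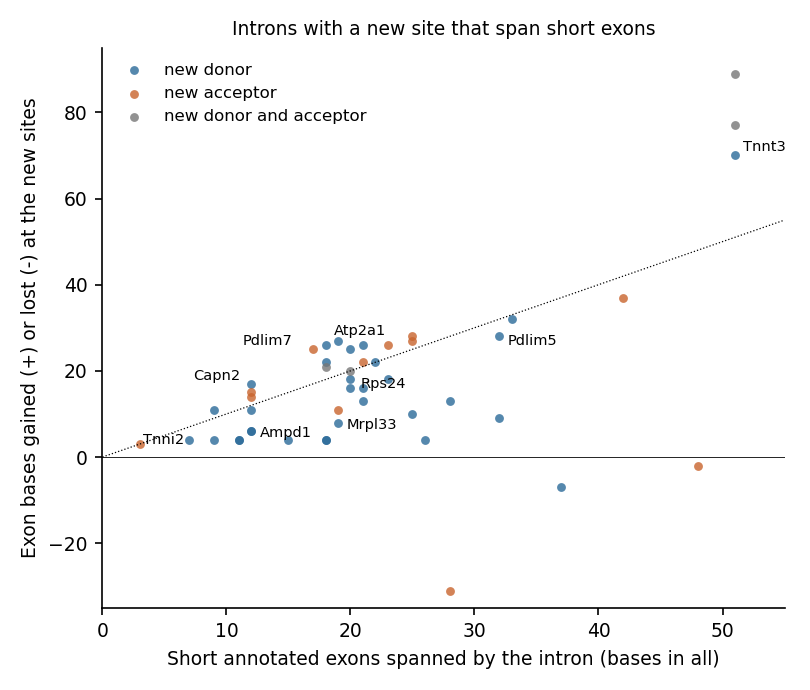
Each point is 1 of the 48 introns with a new site that span short annotated exons, with the spanned bases on the horizontal axis, the exon bases gained at the new sites on the vertical axis and a dotted line where both are equal. Colours separate a new donor (32), a new acceptor (12) and both (4). Atp2a1 lies at 18 and 26 and Mrpl33 at 19 and 8, and 34 points lie within 10 bases of the line.

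Among annotated internal exons of genes with at least 20 complete-model reads in each library, those of 11 to 20 bases were spanned most often by an intron of a recurrent new-site model, 23 of 76 (30.3%, exact 95% interval 20.2% to 41.9%) in 14 genes. Of exons of 1 to 10 bases, 5 of 30 were spanned (16.7%, 5.64% to 34.7%), and of those of 21 to 30 bases 17 of 189 (8.99%, 5.33% to 14.0%). The share was 1.32% at 31 to 50 bases (11 of 833), 0.419% at 51 to 100 bases (25 of 5969), 0.242% over 100 and up to 200 bases (22 of 9104) and 0.180% above (4 of 2225). The intervals of the classes up to 30 bases lay above those of each class over 50 bases. They treat each exon as a separate draw, although exons of 1 gene are not independent and reads chose the models, so this is a description. Tnnt3 alone gave 8 of the 23, and without it the share at 11 to 20 bases was 22.1%.

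**Figure D3:**
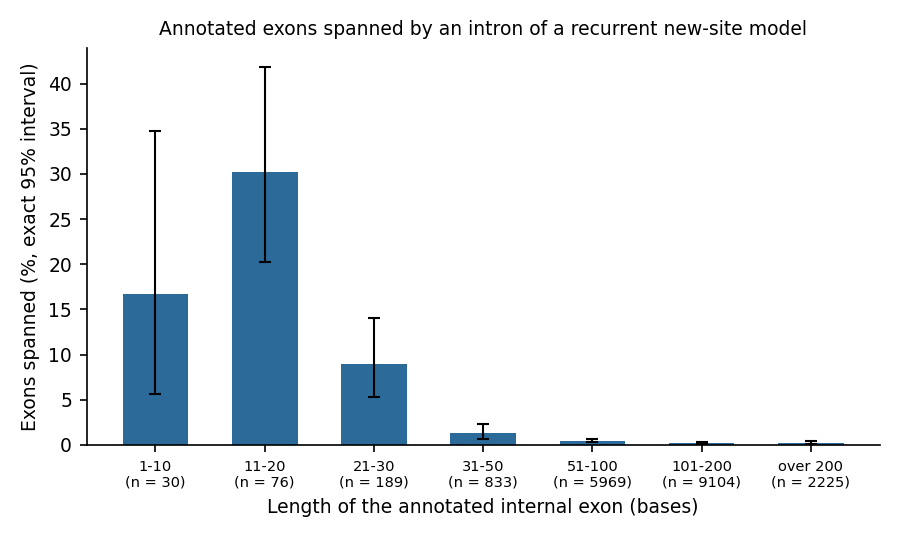
Percent of annotated internal exons, by length class in bases, that were spanned by an intron with a new site in a recurrent model, with the number of exons in each class and exact 95% intervals as bars. The share is 30.3% at 11 to 20 bases and under 0.5% in each class over 50 bases.

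Tnnt3, fast troponin T, is known for a run of short exons near its 5′ end that are spliced in many combinations. It had 9 recurrent models. Model 1 had 187 and 124 reads (19.2% and 17.3%), with a donor 4 bases beyond and an acceptor 111 bases before annotated sites, and model 2 had 12.4% and 14.1%, with a donor 70 bases beyond. Of all reads of the gene, model 1 held 12.2% and 9.00% and model 2 7.92% and 7.33%. Both spanned annotated exons of 8, 12, 14, 15, 18 and 19 bases. Model 3 held 7.61% and 10.3%, model 4 8.94% and 7.68%, and model 5 4.73% and 3.49%. The 5 models kept similar shares in both libraries, and their order differed between the libraries for models 3 and 4.

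The 630 models used 779 different unannotated sites, 433 donors and 346 acceptors. Of the models, 474 had 1 new site, 135 had 2 and 21 had more (11 with 3, 6 with 4 and 4 with 5). In the coding span lay 66.8% of the sites, before it 23.7%, after it 4.88%, and 4.62% were in genes with no coding annotation. By position, 46.2% fell inside an annotated exon, 46.9% in an annotated intron and 6.93% outside the annotated gene.

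Distances to the nearest annotated site of the same kind in the gene had a median of 128 bases (214 for donors and 49 for acceptors). Within 10 bases lay 221 of 779 sites (28.4%, 25.2% to 31.7%), 10.5% lay at 11 to 30 bases, 9.24% at 31 to 100, 24.6% over 100 and up to 1000 and 27.2% beyond. Sites of models seen in 1 library only were within 10 bases in 25.8% (25.2% to 26.3%), with a median of 141. For acceptors the recurrent sites lay within 10 bases in 35.0% and the others in 26.5%, and for donors in 23.1% and 25%. The intervals of the acceptor shares, 29.9% to 40.3% and 25.7% to 27.4%, did not overlap, and those of the donors, 19.2% to 27.4% and 24.2% to 25.8%, did.

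Among donors 1 shift stood out: 45 of 433 (10.4%, 7.68% to 13.7%) lay exactly 4 bases beyond the annotated donor, against 12 at 3 bases inside and 8 at 4 bases inside. The same shift held 11.5% of donors seen in 1 library only (1345 of 11706). Annotated donors of detected genes had their nearest other annotated donor at 4 bases, on either side, in 0.410% of 161831 cases. Among the 2110 of them with another annotated donor within 10 bases, 663 had the nearest at 4 bases. Of the 433 new donors, 100 lay within 10 bases of an annotated donor, with 45 at 4 bases beyond and 8 at 4 inside. A donor 4 bases beyond an annotated GT that itself reads GT makes the letters GTNNGT on the gene's strand, which 34.9% of the annotated donors with 6 readable intron bases hold (9878 of 28284). The new donor could be read at 8 of the 45 sites and was GT in all 8. Models with this shift ran from rare to leading forms. Pitpna, a phosphatidylinositol transfer protein, had 138 and 68 reads on a model with this shift alone (73.8% and 67.3%), whose intron spanned an 11-base exon, and Col6a1, Suds3 and Tnnt3 model 1 above have it beside another new site. Col3a1 and Col1a1, fibrillar collagens, had 21 and 7 reads (0.820% and 0.870%) and 24 and 2 reads (0.768% and 0.531%). Pitpna, Col3a1 and Col1a1 were picked after their values were seen.

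Acceptors peaked on the exon side, with 30 of 346 at 3 bases (8.67%, 5.93% to 12.1%) and 28 at 2 bases (8.09%, 5.44% to 11.5%) inside the annotated exon, 12 each at 4 and 5 bases inside, and 12 at 3 bases before it. In models of 1 library only, 5.43% of acceptors lay 3 bases and 4.45% lay 2 bases inside. Of 156946 annotated exons of detected genes with readable starts, 5.36% begin with AG, the letters that a shift of 2 bases needs. In 5.57% AG comes after 1 other base. Annotated acceptors had their nearest other annotated acceptor, on either side, at 3 bases in 1.23% of 156999 cases and at 2 bases in 0.157%. All 58 acceptors at 2 or 3 bases inside an exon read AG.

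**Figure D4:**
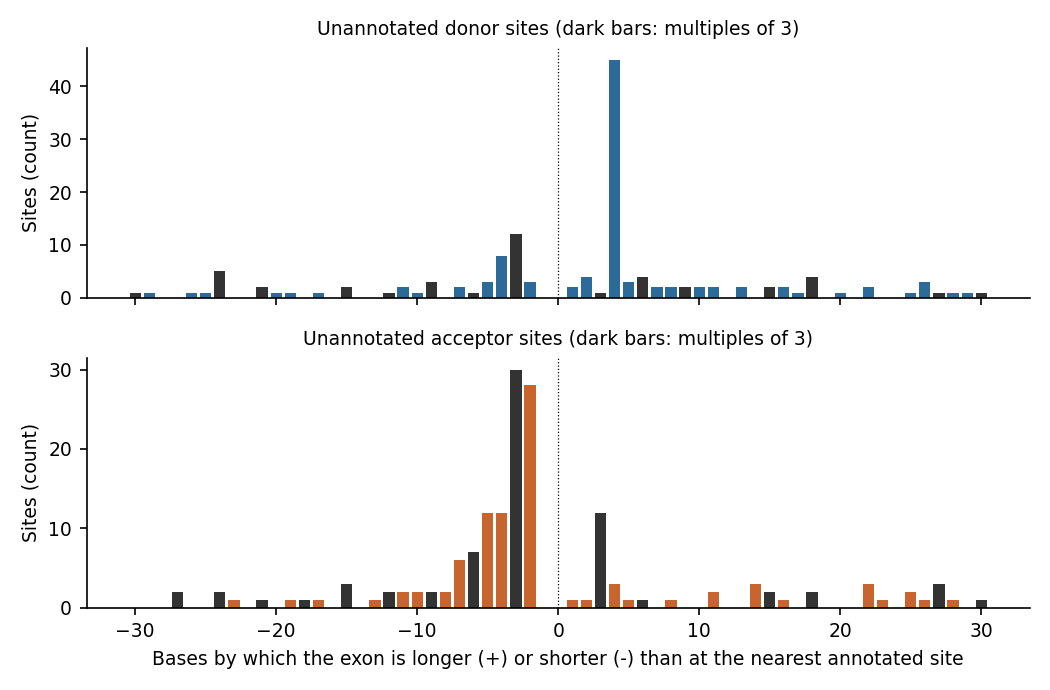
Number of unannotated donor sites (upper panel) and acceptor sites (lower panel) at each shift from the nearest annotated site, for shifts of up to 30 bases. Positive values mean a longer exon, and dark bars are multiples of 3. Donors peak at 4 bases longer (45 sites) and acceptors at 3 and 2 bases shorter (30 and 28).

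The intron letters could be read from annotated exons at 384 of the 779 sites. GT began 145 of 164 readable donors (88.4%), GC 18 and AT 1. AG ended 216 of 220 readable acceptors (98.2%), AT 3 and AC 1. Sites of 1 library only gave 86.8% and 96.5%. Readable sites are those inside annotated exons or in introns that another transcript keeps, so these shares do not speak for the rest.

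Of the 375 sites within 100 bases, 143 lay at a multiple of 3 (38.1%, 33.2% to 43.3%), against 34.6% (33.7% to 35.5%) of 10771 sites seen in 1 library only, and these intervals overlapped. A multiple of 3 was seen at 44.9% of acceptors (88 of 196) and 30.7% of donors (55 of 179). The donors divided by side: 49.3% (35 of 71) where the exon was shorter and 18.5% (20 of 108) where it was longer, the class that holds the 45 sites at 4 bases. Acceptors had 44.4% and 45.9%. In the coding span 39.1% were a multiple of 3 (118 of 302) and outside it 34.2% (25 of 73, 23.5% to 46.3%), intervals that overlapped. At a distance of 11 to 100 bases the share was 44.2% and within 10 bases 33.9%.

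The reading frame could be followed in 333 models whose start codon and bases all lay in annotated exons. In 142 the reading gave the same codons up to the annotated stop, and in 85 the annotated stop was reached with changed codons. In 73 another stop came over 50 bases before the last junction, a position known to mark an RNA for nonsense-mediated decay. In 33 another stop came later. Among 155 models with 1 new site in the coding span within 100 bases, the frame follows from the shift: 66 of 73 with a multiple of 3 reached the annotated stop, and 77 of 82 without reached another stop, 59 of them early.

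In Casq1, Sdhb, Ldha and Ewsr1, shifts by 3 or 6 bases changed the reading from annotated bases by 1 or 2 codons. No protein was measured. Casq1, the calcium store of the sarcoplasmic reticulum, went from 405 to 404 codons in a model with 31 and 17 reads (0.296% and 0.375%). Sdhb, Ldha, Idh3a, Ewsr1, Tnnc2, Ak1 and Oaz2 were picked after their values were seen. Sdhb, the iron-sulfur subunit of succinate dehydrogenase, went from 282 to 280 in a model with 64 and 36 reads (7.25% and 6.07%). Ldha, lactate dehydrogenase A, went from 332 to 331 with 29 and 10 reads (0.354% and 0.228%). Ewsr1, an RNA-binding protein, gained 1 codon (655 to 656) in a model with 30 and 10 reads (29.1% and 23.3%).

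Qk, an RNA-binding regulator of splicing, lost 24 bases (8 codons, 341 to 333) in a model with 27 and 22 reads, 43.5% and 43.1%, which led its gene. Idh3a, a subunit of isocitrate dehydrogenase, lost the same number of bases at a donor in 30 and 12 reads (2.59% and 2.12%). Mybph, a relative of myosin-binding protein C, had 111 and 47 reads (31.3% and 31.1%) on an acceptor 3 bases before the annotated one, after its stop codon, so that its 483 codons were the same, and 19.3% and 14.7% of all reads of the gene. Fam114a2 and Nudt4, a diphosphoinositol phosphatase, also had an acceptor 3 bases before the annotated one, with 66 and 24 reads (71.7% and 57.1%) and 50 and 17 reads (35.2% and 38.6%). Actn3, the alpha-actinin of fast fibres, had 28 and 12 reads there (0.414% and 0.381%). These shares at 3-base acceptors thus ran from a minor to a leading form.

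Tnnc2 and Ak1 show shifts that broke the frame, each below 0.5% of its gene. Model 1 of Tnnc2, fast troponin C, with an acceptor 2 bases inside the exon, had 37 and 34 reads, 0.155% and 0.147%, and passed the stop of the 160 annotated codons to a later one. Ak1, adenylate kinase 1, had 26 and 9 reads (0.465% and 0.306%) on a donor 4 bases inside, with a stop after 64 of 194 codons. Oaz2, the antizyme of ornithine decarboxylase, is counted among the early stops in a model with 21 and 6 reads, although its synthesis is known to need a ribosomal frameshift that this plain reading does not follow.

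Exons that overlap no annotated exon of the gene were in 66 models: 67 exons in 61 genes, 29 to 302 bases long with a median of 84. A multiple of 3 was the length of 28 (41.8%, 29.8% to 54.5%), and of 25 of the 46 inside the coding span. Of models seen in 1 library only, 13.3% held such an exon, against 10.5% of the recurrent ones.

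Bin1, which shapes the membranes of the T-tubules, had the most reads on a model with a new exon, 511 and 178, or 53.7% and 48.6% of its gene. The exon of 45 bases (chr18:32423242-32423286) was also in other models of the gene, and over all classes 951 and 370 reads held it while 17 and 11 passed over it, an inclusion of 98.2% and 97.1%. Ywhae, the 14-3-3 epsilon adaptor protein, had a new exon of 45 bases (chr11:75762698-75762742) in a model with 309 and 135 reads, 68.4% and 69.9%, and an inclusion of 69.5% and 73.0%. Tmem65, a membrane protein found in mitochondria, had one of 81 bases (chr15:58807078-58807158) in a model with 131 and 52 reads, 60.6% and 71.2%.

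Phkb, the beta subunit of phosphorylase kinase, had one of 91 bases (chr8:86025198-86025288) in a model with 71 and 23 reads, 80.7% and 74.2%, and an inclusion of 89.8% and 92.9%. Unlike the 3 before, this length is no multiple of 3. Pkm had one of 123 bases before its coding part, with 24 and 20 reads (0.473% and 0.987%), and Atp2a1 model 12 one of 302 bases, with 32 and 6 reads. Both were rare forms.

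Exon counts over all classes also brought up genes whose recurrent model itself had fewer reads, named after their values were seen. Mybpc1, slow myosin-binding protein C, had new exons of 39 and 36 bases with inclusions of 78.7% and 65.9% for the first and 78.3% and 66.0% for the second. Usp25, a deubiquitinase with a known muscle form, had exons of 114 and 96 bases in 54 and 15 reads each, with 2 and 2 reads passing over them. Pde4dip, myomegalin, had one of 61 bases with an inclusion of 66.7% and 62.7%.

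Mknk2, Synpo2 and Casq1 had models with sites further off. Mknk2, a kinase of the translation initiation factor eIF4E, had 224 and 76 reads (61.9% and 59.8%) on a donor 42 bases inside an annotated exon before the coding part, with its 459 codons unchanged. Synpo2, a Z-disc protein, had 73 and 25 reads (50.7% and 50%) on a model with an extra intron inside an annotated coding exon, which begins with GT and ends with AT. Of all reads of the gene, incomplete models included, the Synpo2 model held 25.7% and 21.9%. Casq1 model 1 had 242 and 105 reads, 2.31% and 2.32%, with 12 exons and an extra intron between its 2 new sites. The donor lay 426 bases inside and the acceptor 1682 bases before the nearest annotated sites. The exon of 245 bases after that intron ended at the same annotated donor. The new donor lay before the coding part of the gene and the new acceptor within it. The annotated start codon lay in no exon of the model.

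Shares of gene reads had a median of 5.22% over the 630 models, with quartiles of 0.615% and 24.1%. The share that 2 reads can reach depends on the gene: the median was 28.3% in genes with under 100 complete-model reads over both libraries (220 models), 4.08% with 100 to under 1000 (215 models) and 0.198% with at least 1000 (195 models). A share of at least 50% in each library was found for 66 models. Over both libraries 102 models led their gene, 34 of these where both libraries held at least 20 gene reads, and 238 were second.

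Reads per model were few, with medians of 6 and 3. At least 10 reads in each library were found for 110 models, at least 20 for 55 and at least 100 for 10. By gene, 378 had 1 recurrent model and 75 had more. After Atp2a1 came Ckm, the muscle creatine kinase, with 11, Actn3 and Tnnt3 with 9 each, and Mybpc2, Myl1 and Tpm1 with 8 each, all genes of high read counts.

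Lists of muscle gene groups held 233 of the models. Sarcomere genes had 77 models in 20 of 40 genes, with a median share of 0.168%, and 7 reached 5%. Excitation-contraction coupling and membrane genes had 40 in 9 of 42, with a median of 0.0760%, 25 of them in Atp2a1. Genes of glycolysis, glycogen and creatine had 47 in 19 of 36, with a median of 0.291%. Mitochondrial genes had 25 in 20 of 63 (0.613%), and Z-disc, costamere and cytoskeleton genes 20 in 15 of 48 (2.31%). Growth and signalling genes had 9 in 7 of 43 (1.40%), matrix and connective tissue genes 7 in 5 of 34 (0.845%), translation and protein folding genes 5 in 5 of 40 (6.15%) and RNA processing genes 3 in 3 of 51 (43.3%). Against the median of 5.22% over all models, 7 of the 9 lists lay lower. Shares fall with the reads of the gene, as given above, and the lists were not compared at equal gene reads.

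The shares in both libraries were compared for every joined model with at least 10 reads over both, in genes with at least 10 other reads, by Fisher's exact test, two-sided, with Benjamini-Hochberg adjustment. Of 3643 models of the 3 complete classes, 137 differed at an adjusted p under 0.05 (3.76%), and of the 293 recurrent new-site models among them 3 did (1.02%), with 22 at an unadjusted p under 0.05. The rule asked for reads in both libraries, so nothing is read from the smaller share. The test compares these libraries, not conditions.

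Tnni2, fast troponin I, gave the smallest p. Model 1, with a donor 4 bases beyond the annotated one, had 137 of 237 complete-model reads in replicate 1 (57.8%) and 75 of 2059 in replicate 2 (3.64%), with an adjusted p of 4.49e-96 by Fisher's exact test. Model 2 had 8 and 3 reads, 3.38% and 0.146%, with an adjusted p of 6.19e-05. The deposited class of the gene's main chain of introns differed between the libraries, which set the denominators. With chains joined over classes, a comparison added after the data were seen, model 1 held 3.78% and 3.64% and model 2 0.221% and 0.146%, both with an adjusted p of 1. Atp2a1 model 2 also differed, higher in replicate 2 (0.331% and 0.558%, adjusted p = 1.01e-06 by Fisher's exact test, and 6.17e-06 with chains joined).

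Among the rest the smallest p were those of Tsc22d3, a glucocorticoid-induced leucine zipper protein, with 33 of 331 and 18 of 77 reads (9.97% and 23.4%, adjusted p = 0.0825 by Fisher's exact test), and Tmem38a model 2, of a potassium channel of the sarcoplasmic reticulum (0.476% and 1.57%, adjusted p = 0.104). Neither passed the threshold.

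**Figure D5:**
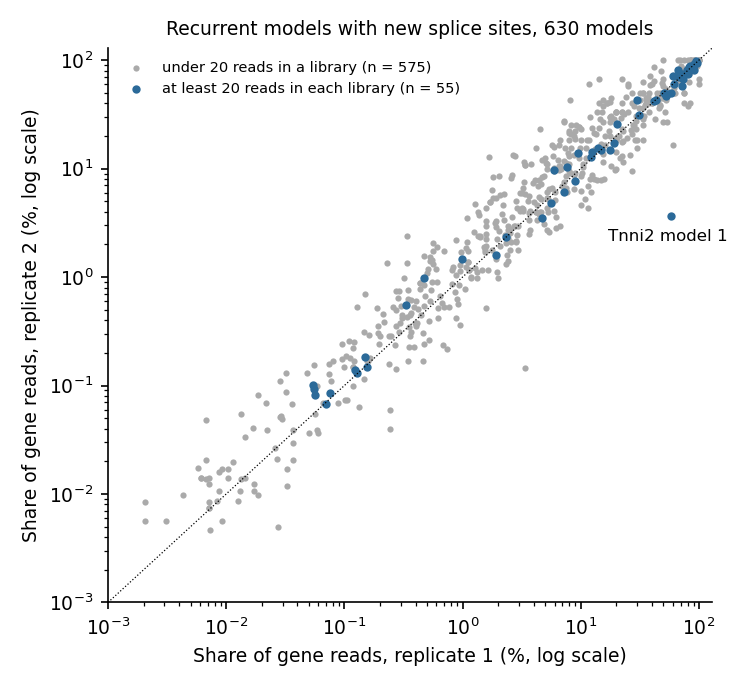
Share of gene reads (percent, log scales) in replicate 1 and replicate 2 for the 630 recurrent models with new splice sites, with the 55 that have at least 20 reads in each library in blue and the line of equal shares dotted. Most points follow the line, and Tnni2 model 1 lies far below it at 57.8% and 3.64%.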

How the data were processed

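The authors deposited, per library, a table of whole read counts per transcript model and an annotation whose start and end positions give each model's exons. Per the file description deposited by the authors, filtered alignments to mm10 were set against GENCODE M21. Attribute names of the deposited annotation are those of TALON. For the aligner and the correction of reads, names and versions were not given in the sources used here. Counts were used as deposited, without contigs of ERCC RNAs. Every column matched a sample.

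The members and gene lists were chosen with earlier results of these data known. Named are the 12 models with the highest mean share and at least 20 reads in each library, the 10 with most reads, up to 15 of the lists with a share of at least 5% and at least 10 reads in each library, the 8 with most reads at a short exon, the 6 with most reads and a new exon, the 6 with an acceptor 3 bases from an annotated one, and the 5 smallest p. Further models of Atp2a1 and Tnnt3, and other genes where the text says so, were chosen after their values were seen. A short exon has at most 30 bases. No genome sequence was used: bases were read from 141767 GENCODE M21 transcripts, a choice made after the data were seen. Intervals are exact Clopper-Pearson at 95%. The procedure of the Fisher test was tested on simulated data, for models with at least 40 reads only. Alternatives changed the read minimum, the library, the denominator, the distance limits and the length of a short exon. Scripts ran under Python 3.11.15, with scipy 1.17.1 and statsmodels 0.14.6 for tests, numpy 2.4.6 for arrays and matplotlib 3.10.9 for figures.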

Additional observations from a re-analysis of the deposited data

Results flagged for a closer look

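New-site models were also listed in antisense and intergenic loci, which the comparisons above leave out. They were seen without any control sample. The limit that a count of 0 allows (3 reads) holds for a single count, whereas the totals given here are sums over models. These 157 models held 119 reads in replicate 1 and 110 in replicate 2. Of them, 1 had at least 2 reads in each library, with 4 and 2 reads, the second below that limit.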

How the results depend on the processing

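With a minimum of 1, 5 or 10 reads in each library the models numbered 1911, 231 and 110, those at a short exon 155, 53 and 33, and the median share was 3.15%, 8.73% and 14.1%. With minimums of 5 and 10, multiples of 3 fell to 33.1% and 29.8%, and sites within 10 bases rose to 34.0% and 39.0%. Readable sites with GT or AG were 90.5% at a minimum of 5. Leaving out a replicate in turn gave 1261 to 2448 models, 141 to 197 at a short exon, multiples of 3 of 34.9% to 39.6%, 25.9% to 28.1% of sites within 10 bases, 94.2% with GT or AG (both replicates), and a median share of 3.28% to 5.26%. For the same models, replicate 2 alone gave a median of 5.74% and replicate 1 alone 4.41%. As a share of all reads of the gene the median was 3.72%. With chains joined over classes, 1 model in place of 3 differed between the libraries, since the Tnni2 chain then has the same class in both. Chains of any class in the other library gave 864 models, a short-exon limit of 50 bases 115 models at such exons, and leaving out Atp2a1 (added after the data were seen) 605 models with a median share of 5.89%. Other minimums, denominators or depths in the test gave 2 or 3 models that differed. The test on bases from a genome was not run. No paired analysis was possible because there is 1 group. Depth limits what a model of few reads can show: 3 reads, the most that a count of 0 allows, are 2.74 and 4.79 CPM.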
